A study of Mus musculus with 12 samples.

Results

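Transcripts of the immunity-related GTPases (IRGs) were followed in dendritic cells (DCs) grown from mouse bone marrow in which PGC-1β, the transcriptional co-activator encoded by Ppargc1b, was knocked down with or without interferon-β (IFN-β). The genes were chosen by name, as the rows of the count table that carry the symbols Irgm1, Irgm2, Igtp, Iigp1, Tgtp1, Tgtp2 and Gm12250. All 7 were found among 55471 gene identifiers, and all 7 passed the filter on low counts, which kept 18228 genes. RNA was sequenced from 12 libraries in 4 groups of 3, which were unstimulated shControl, IFN-β-treated shControl, unstimulated shPpargc1b and IFN-β-treated shPpargc1b. All groups came from bone marrow of adult female C57BL/6 mice, grown with GM-CSF, infected with a retrovirus that carried a short hairpin RNA (shRNA) and a human CD8 reporter, and sorted on that reporter. The shControl hairpin targeted firefly luciferase, a gene that mice lack, the labels do not name the Ppargc1b hairpin, and treated cells received IFN-β for 6 h. The labels did not say whether the 3 libraries of a group came from separate mice or cultures, so the p-values measure only the spread between these libraries, which may be technical.

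IRGs are GTP-binding proteins of rodent cell-autonomous immunity that are switched on by interferons and act against parasites and bacteria living in vacuoles. The GKS members, here Iigp1 (Irga6), Tgtp1 and Tgtp2 (both Irgb6) and Gm12250 (Irgb10), carry a lysine in the first nucleotide-binding motif, load onto the vacuole membrane of Toxoplasma or Chlamydia and break it. The GMS members, here Irgm1, Irgm2 and Igtp (Irgm3), carry a methionine at that place, sit on the membranes of the cell itself and hold the GKS effectors in the inactive, GDP-bound state. Type I interferon reaches such genes through the receptor Ifnar1/Ifnar2 and the interferon-stimulated response element (ISRE), whereas interferon-γ acts through the gamma-activated site (GAS).

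Of the 7 genes, 6 lie on chromosome 11 in 2 clusters (GRCm38, GENCODE M21). The first cluster holds Irgm1 (chr11:48861968-48871683), Tgtp1 (chr11:48985327-48994172) and Tgtp2 (chr11:49057194-49064206), all on the minus strand. The second holds Gm12250 (chr11:58187739-58189012), Igtp (chr11:58199556-58207591) and Irgm2 (chr11:58199618-58222782) on the plus strand, where Igtp and Irgm2 share 162 exon bases. Iigp1 lies apart, on chromosome 18 (chr18:60376027-60392634).

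GENCODE lists Gm12250 as a processed pseudogene with 1274 exon bases, so reads from other exons of the RefSeq gene were outside the region counted. Tgtp1 and Tgtp2 transcripts were 99.8% identical over 2810 aligned bases, and 16.7% and 19.6% of their 100-base windows, respectively, were found in no other member or neighbouring IRG gene, against 94.3% to 100% for the other 5 genes. Since only uniquely mapped read pairs were counted, the levels of Tgtp1 and Tgtp2 are low estimates and their split is uncertain. Tgtp1 also shares 223 exon bases with its neighbour Gm12185.

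The sequences in front of the gene starts are shown because the members rose together with IFN-β and because 4 of them carry the same arrangement of motifs. Both strands were searched for an ISRE-type sequence, which is GAAA, any 2 bases and GAAA again, and a GAS-type sequence, TTCNNNGAA, which reads alike on both strands. RefSeq sequences (GRCm38.p6) of 250 bases before to 50 bases after the start were at hand for 6 of the 7 members, and not for Iigp1. Each sequence runs 5′ to 3′ on the gene's strand and lies within the 100 bases before the RefSeq start, with every match in capitals. For Irgm1, 30 bases around the matches are given (chr11:48871428-48871457, minus strand), since GENCODE places this stretch in an exon of Irgm1. The other stretches are chr11:58199456-58199555 (plus) for Igtp, chr11:58214877-58214976 (plus) for Irgm2, chr11:48992259-48992346 (minus) for Tgtp1, chr11:49064213-49064312 (minus) for Tgtp2 and chr11:58183743-58183842 (plus) for Gm12250.
Igtp: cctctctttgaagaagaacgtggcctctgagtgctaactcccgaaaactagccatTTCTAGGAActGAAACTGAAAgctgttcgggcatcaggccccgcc
Irgm2: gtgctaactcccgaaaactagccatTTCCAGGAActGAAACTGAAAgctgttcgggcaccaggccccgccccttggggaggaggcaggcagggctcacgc
Tgtp1: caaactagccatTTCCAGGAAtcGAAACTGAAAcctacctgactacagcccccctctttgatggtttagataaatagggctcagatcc
Tgtp2: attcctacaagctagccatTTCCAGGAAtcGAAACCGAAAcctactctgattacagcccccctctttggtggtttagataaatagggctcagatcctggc
Gm12250: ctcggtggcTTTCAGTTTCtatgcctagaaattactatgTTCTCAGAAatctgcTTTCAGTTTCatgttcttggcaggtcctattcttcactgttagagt
Irgm1: gtttcaaGAAATAGAAACCGAAActgattc

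The ISRE-type sequence was found before the start of all 6 members with a sequence, against 3.44% of 32851 promoters in the RefSeq table. The GAS-type sequence was found in 5 of the 6, all but Irgm1, against 8.30% of all promoters, and 0.454% of all promoters held both. Among related genes, the ISRE-type sequence was found in 5 of 6 promoters of the guanylate-binding proteins described below. It was found in 2 of 6 promoters of other IRG genes. In Igtp, Irgm2, Tgtp1 and Tgtp2 the GAS-type match began 11 bases before the ISRE-type match, so that 2 bases separated them. This spacing, read from the members themselves, occurred in 5 of the 32851 promoters, and the fifth belonged to Gm12185, another IRG gene of the first cluster. Its distance from the start differed among the 4 members, with the ISRE-type match beginning at base -34 in Igtp, -64 in Irgm2, -77 in Tgtp1 and -70 in Tgtp2. Gm12250 carried 2 ISRE-type matches on the opposite strand, from bases -91 and -46, on either side of a GAS-type match from base -61. Irgm1 carried 2 overlapping ISRE-type matches, from bases -30 and -24. The copies are related: Igtp and Irgm2 share an unbroken run of 29 bases in these stretches, Tgtp1 and Tgtp2 one of 27 bases, and Irgm2 and Tgtp1 one of 20 bases. A match is a description of the letters and not evidence of binding.

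**Figure D1:**
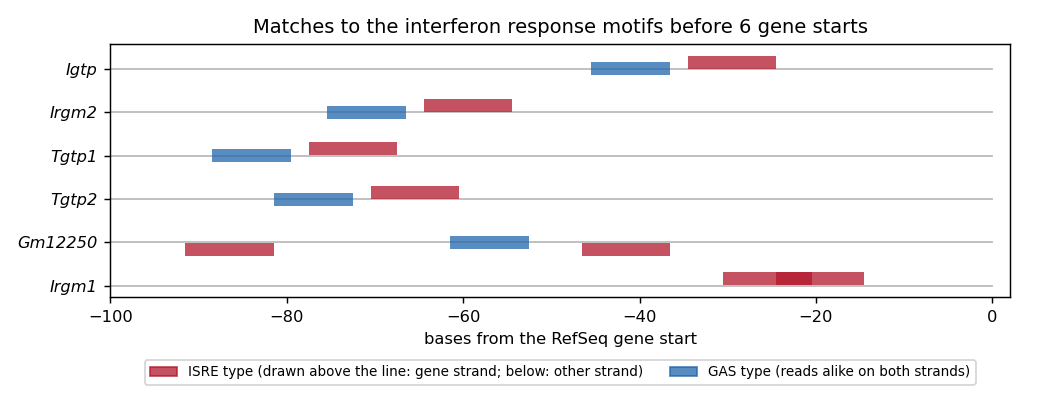
Positions of ISRE-type (red) and GAS-type (blue) matches in the 100 bases before the RefSeq start of 6 members, in bases from the start. In Igtp, Irgm2, Tgtp1 and Tgtp2 a GAS-type match begins 11 bases before an ISRE-type match, Gm12250 has 2 ISRE-type matches on the opposite strand, and Irgm1 has 2 overlapping ISRE-type matches and no GAS-type match.

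Library totals ran from 49919648 to 77726101 counts, and the members together took 0.0121% to 0.0151% of the counts in unstimulated libraries and 0.120% to 0.165% in IFN-β-treated ones. Ppargc1b, which checks the labels, stood at 34.5 ± 1.94 CPM (mean ± SD, n = 3; CPM are counts brought to a common library size with edgeR's TMM factors) in unstimulated shControl and at 19.4 ± 0.851 CPM in unstimulated shPpargc1b cells. With IFN-β it stood at 27.8 ± 3.93 and 18.7 ± 2.83 CPM, so that the fitted level left by the knockdown was 56.3% without and 67.2% with IFN-β. Among markers of cell types, the summed CPM of 9 dendritic-like markers was 3488 to 5319 over the libraries and that of 8 macrophage-like markers 2235 to 3087. All 9 and all 8 passed the filter on low counts, but a sum does not show which of its genes carry it. Markers of neutrophils (8 genes, 50.5 to 178 CPM) and of mast cells or basophils (7 genes, 7.01 to 24.8 CPM) were low, and those of lymphocytes (8 genes, 0.315 to 0.829 CPM) and red cells (5 genes, 0.0281 to 0.311 CPM) were near 0. In bulk RNA, fewer cells of a type and less RNA per cell cannot be told apart.

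Before stimulation the 3 GMS genes and Gm12250 were already transcribed, while the other 3 GKS genes were close to silent. Set per kilobase of exon, which allows levels of different genes to be compared, Irgm1 led in unstimulated shControl cells at 10.6 ± 0.787 CPM per kb, followed by Gm12250 (8.26 ± 0.732) and Irgm2 (8.21 ± 0.654), whose libraries overlapped, and by Igtp (5.78 ± 0.526). Tgtp2 (0.934 ± 0.149 CPM per kb), Iigp1 (0.428 ± 0.0879) and Tgtp1 (0.0898 ± 0.0519) lay well below. As plain CPM, Irgm1 stood at 58.6, 66.7 and 58.9 in the 3 libraries, Irgm2 at 28.3, 33.0 and 29.7, and Igtp at 11.0, 12.9 and 11.2. Each GMS gene thus varied little between libraries. Gm12250 stood at 9.82, 11.6 and 10.2 CPM, Iigp1 at 2.01, 3.03 and 2.43 CPM and Tgtp2 at 2.34, 3.21 and 2.68 CPM. Tgtp1 had only 9, 29 and 13 counts, or 0.157, 0.475 and 0.231 CPM, so that its level rests on few reads. The 4 GKS genes made up 12.8%, 14.0% and 13.5% of the summed CPM of the 7 members, and the sum was 119 ± 10.0 CPM. This share of reads is not corrected for length or for the undercount of Tgtp1 and Tgtp2.

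With IFN-β all 7 members rose in shControl cells, beside 23.7% of all genes tested that were called higher. Iigp1, Tgtp1 and Tgtp2, which had the lowest unstimulated CPM, rose most. Iigp1 reached 362, 389 and 408 CPM, and the treated libraries lay above the unstimulated ones without overlap for this and every other member, as they did for 27.2% of all genes tested. Its log2 fold change was 7.27 ± 0.16 (SE; 154-fold; edgeR quasi-likelihood test, adjusted p = 7.8e-15). Tgtp1 reached 16.6, 21.6 and 23.4 CPM (log2 fold change 6.13 ± 0.24, adjusted p = 5.2e-12) and Tgtp2 143, 151 and 149 CPM (5.74 ± 0.09, adjusted p = 4.1e-16). These 3 genes share the low unstimulated level, and Tgtp1 and Tgtp2 are counted from few unique windows.

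The remaining members, which had started higher, rose by 3.29 to 3.77 on the log2 scale. Igtp reached 149.8, 169 and 161 CPM (log2 fold change 3.77 ± 0.07, adjusted p = 1.0e-15), and Gm12250 reached 131, 139 and 137 CPM (3.69 ± 0.08, adjusted p = 1.2e-14). Irgm1 reached 584, 624 and 623 CPM (3.31 ± 0.06, adjusted p = 8.3e-16), and Irgm2 reached 281, 310.0 and 300.0 CPM (3.29 ± 0.07, adjusted p = 4.9e-15). The members' median log2 fold change of 3.77 stands beside one of -0.03 for all genes. Summed over the members, the level went from 119 ± 10.0 to 1757 ± 77.8 CPM, and the share of the 4 GKS genes went from 12.8%, 14.0% and 13.5% to 39.1%, 38.9% and 39.8%.

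**Figure D2:**
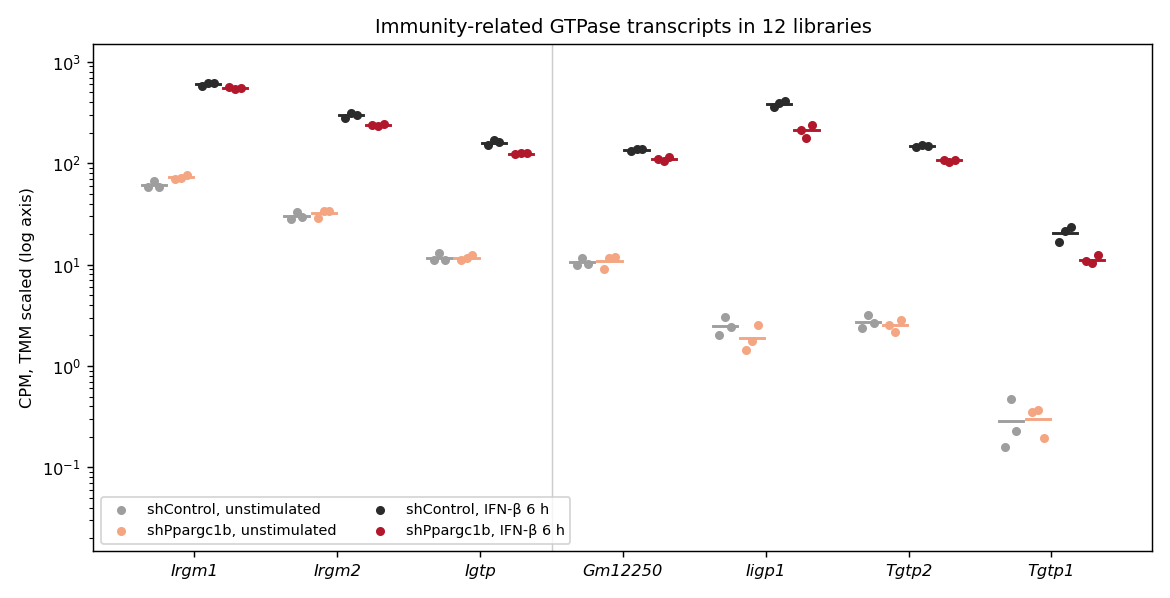
TMM-scaled CPM (log axis) of the 7 members in each of the 12 libraries, with a bar at each group's mean; the GMS genes are left of the vertical line and the GKS genes right of it. Treated libraries lie above unstimulated ones for every member, and with IFN-β the shPpargc1b libraries lie below the shControl libraries for every member.

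Per kilobase of exon, Gm12250 (107 ± 3.19 CPM per kb) and Irgm1 (105 ± 3.95 CPM per kb) were highest in treated shControl cells and overlapped between libraries. They were followed by Irgm2 (80.5 ± 3.95) and Igtp (79.0 ± 4.75), which also overlapped, then by Iigp1 (66.3 ± 4.01) and Tgtp2 (50.3 ± 1.34), with Tgtp1 (6.41 ± 1.10) last. The values of Tgtp1 and Tgtp2 are again low estimates, so their place in the order is uncertain. In treated shPpargc1b cells Irgm1 (95.5 ± 1.90) stood above Gm12250 (86.5 ± 3.25) without overlap, and Tgtp2 (36.2 ± 1.21) and Iigp1 (36.1 ± 5.33) overlapped. The order rests on the length used: when the longest coding transcript was taken in place of all exon bases, a choice made after seeing the data, Irgm1 stood at 270.1 ± 10.2 and Iigp1 second at 124 ± 7.48 CPM per kb in treated shControl cells.

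In shPpargc1b cells IFN-β also raised all 7 members, beside 21.4% of all genes tested that were called higher. Each fitted fold was smaller than in shControl cells. The log2 fold changes were 6.76 ± 0.16 for Iigp1 (109-fold), 5.40 ± 0.09 for Tgtp2, 5.22 ± 0.24 for Tgtp1, 3.40 ± 0.06 for Igtp, 3.34 ± 0.08 for Gm12250, 2.93 ± 0.06 for Irgm1 and 2.90 ± 0.07 for Irgm2. The largest adjusted p of the 7 was 5.2e-11 (Tgtp1). Summed over the members, the level went from 132 ± 8.31 to 1356 ± 54.2 CPM. The test of the difference between the responses is given with the interaction below.

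Without IFN-β 1 of 7 members, Irgm1, passed the threshold for the knockdown, beside 12.4% of all genes tested that were called higher and 11.1% that were called lower. It was higher in shPpargc1b cells, at 70.2, 71.3 and 76.4 CPM against 58.6, 66.7 and 58.9 CPM, without overlap, as 18.4% of all genes tested were (log2 fold change 0.24 ± 0.05, adjusted p = 0.0032). The other 6 members did not pass the threshold, and their libraries overlapped between groups. Irgm2 stood at 28.7, 33.6 and 33.7 CPM (log2 fold change 0.08, 95% confidence interval -0.06 to 0.22) and Igtp at 11.0, 11.7 and 12.3 CPM (0.00, -0.14 to 0.15). Gm12250 stood at 9.07, 11.5 and 11.9 CPM (0.05, -0.14 to 0.23) and Tgtp2 at 2.55, 2.18 and 2.82 CPM (-0.13, -0.36 to 0.11). The least abundant members had the widest intervals. Iigp1 stood at 1.43, 1.76 and 2.51 CPM, from 78 to 182 counts (-0.37, -0.82 to 0.08, adjusted p = 0.24), and Tgtp1 had 14 to 25 counts (0.03, -0.80 to 0.86). By edgeR 0 members were called lower, with 0 lower at an unadjusted p under 0.05 and 0 by DESeq2. Summed, the members stood at 132 ± 8.31 CPM in shPpargc1b and 119 ± 10.0 CPM in shControl cells, and these libraries overlapped.

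With IFN-β 6 of the 7 members were lower in shPpargc1b than in shControl cells, beside 12.7% of all genes tested that were called lower and 11.5% called higher, and the GKS effectors Iigp1 and Tgtp1 fell furthest. Iigp1 stood at 214, 178 and 239.5 CPM against 362, 389 and 408 CPM in shControl cells, so that the highest knockdown library was well below the lowest control library. Its fitted level was 54.4% of that in shControl cells (log2 fold change -0.88 ± 0.11, 95% confidence interval -1.11 to -0.64, adjusted p = 3.3e-05). Tgtp1 stood at 10.8, 10.5 and 12.3 CPM against 16.6, 21.6 and 23.4 CPM (-0.88 ± 0.16, adjusted p = 6.6e-04). Tgtp2 stood at 108, 102 and 108 CPM against 143, 151 and 149 CPM (-0.47 ± 0.06, adjusted p = 6.7e-05). When the counts of these near-identical copies were summed before the fit, the sum was lower as well (-0.52, adjusted p = 5.2e-05), and most of the counts in that sum are those of Tgtp2.

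Gm12250, the remaining GKS gene, stood at 111, 106 and 114 CPM against 131, 139 and 137 CPM (log2 fold change -0.30 ± 0.07, adjusted p = 0.0062). Among the GMS regulators, Igtp stood at 122, 125 and 125 CPM against 149.8, 169 and 161 CPM (-0.37 ± 0.06, adjusted p = 2.0e-04), and Irgm2 at 241, 232 and 244 CPM against 281, 310.0 and 300.0 CPM (-0.31 ± 0.06, adjusted p = 0.0016). Irgm1 had the smallest difference of the 7. It stood at 564, 543 and 558 CPM against 584, 624 and 623 CPM (-0.14 ± 0.05, 95% confidence interval -0.24 to -0.03), and its adjusted p of 0.064 missed the threshold, with a range of 0.035 to 0.14 over 19 alternative settings. Like the other 6 members, Irgm1 was lower in every treated shPpargc1b library than in any treated shControl library, which held for 20.7% of all genes tested.

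The members' median log2 fold change was -0.37, beside -0.01 for all genes. The 4 GKS genes were all called lower (median -0.68), as were 2 of the 3 GMS genes (median -0.31). The 2 classes overlapped: the GKS gene Gm12250 (-0.30) fell no more than the GMS genes Igtp (-0.37) and Irgm2 (-0.31). The split between Tgtp1 and Tgtp2 is uncertain, and their sum gave -0.52. No member fell by 1 or more on the log2 scale. The summed level of the members was 1371, 1296 and 1401 CPM in shPpargc1b against 1667, 1803 and 1801 CPM in shControl cells, without overlap. The share of the GKS genes in that sum was 32.4%, 30.6% and 33.8% against 39.1%, 38.9% and 39.8%, also without overlap, and the ratio of Iigp1 to Irgm1 CPM was 0.379 ± 0.0509 against 0.633 ± 0.0192. Both were lower in shPpargc1b cells without IFN-β too, where the GKS share was 10.9%, 11.9% and 12.5% against 12.8%, 14.0% and 13.5%, and the ratio 0.0259 ± 0.00636 against 0.0404 ± 0.00560, each without overlap. In those unstimulated cells 0 of 4 GKS genes were called and Irgm1 was called higher (0.24), so the lower share does not show lower GKS levels. For single values such as the share and the ratio, an exact permutation test of 3 libraries against 3 cannot give a p below 0.1.

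**Figure D3:**
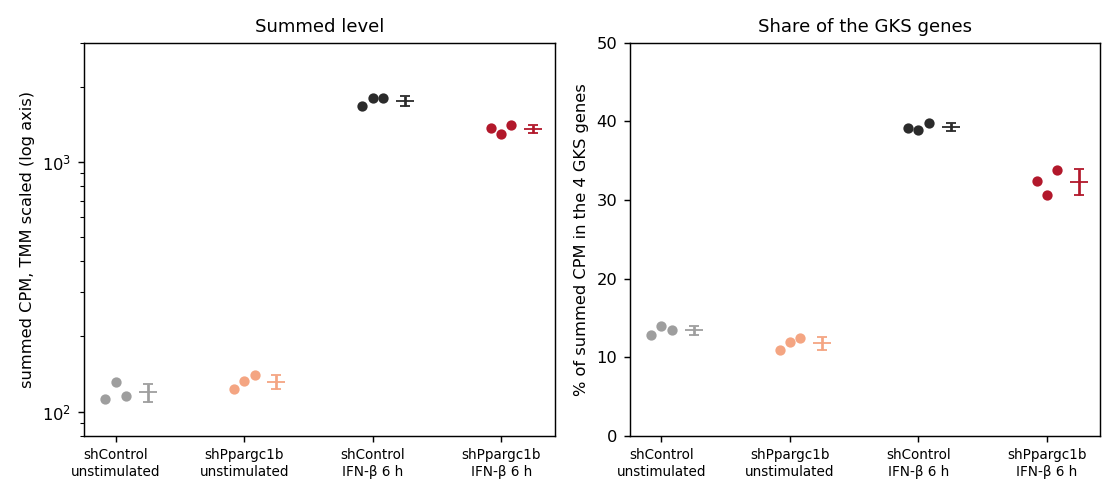
Summed TMM-scaled CPM of the 7 members (left, log axis) and the percent of that sum in the 4 GKS genes (right, axis from 0) in each library, with the mean ± SD beside the points (n = 3). The sum is higher with IFN-β in shControl and shPpargc1b cells. The sum is lower in shPpargc1b than in shControl cells among treated libraries, and the GKS share is lower in shPpargc1b cells among treated and among unstimulated libraries.

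Markers of cell composition also moved with the knockdown. With IFN-β, 6 of 9 dendritic-like markers were higher in shPpargc1b cells (summed level 4659 to 5319 CPM against 3931 to 4694 CPM) and 3 of 8 macrophage-like markers were lower (2667 to 2696 against 2948 to 3087 CPM). Of all genes tested, 11.5% were called higher and 12.7% lower in this comparison. The macrophage-like marker Mrc1, the mannose receptor, was lower in treated and unstimulated cells alike (log2 fold change -1.42 and -1.51). Of the neutrophil-like markers 2 of 8 were higher (101 to 178 against 58.9 to 112 CPM), as were 2 of the 5 tested mast cell or basophil-like markers (12.7 to 20.5 against 7.01 to 14.0 CPM). Both sums overlapped between the groups. The lowest log2 fold changes on these lists were -0.71 and -0.68, respectively, with 0 markers called lower. Of the lymphocyte-like markers, 3 of 8 had at most 5 counts in every library and 1 was tested, and no red cell marker was tested. The part of these shifts in the IRG levels was not tested. In unstimulated cells, where 1 IRG member was called, 5 dendritic-like markers were higher and 3 macrophage-like markers were lower. Also higher there were 2 neutrophil-like and 2 mast cell or basophil-like markers. The summed level of the latter list was 21.9 to 24.8 CPM in shPpargc1b against 8.50 to 16.3 CPM in shControl cells. Of all genes tested, 12.4% were called higher and 11.1% lower without IFN-β.

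The difference between the knockdown effects, which is also the difference between the responses to IFN-β, was tested as an interaction. It was below 0 for all 7 members, with 95% confidence intervals for single genes that excluded 0, but after adjustment over all genes it passed the threshold for 1 of 7, Irgm1, beside 0.669% of all genes tested that were called lower. That share is 122 genes, and 133 genes were called in either direction. The latter number ran from 36 without replicate 3 of unstimulated shControl to 271 without replicate 2 of treated shPpargc1b. For Irgm1 the knockdown effect with IFN-β minus that without it was -0.38 ± 0.07 on the log2 scale (adjusted p = 0.025). This call was lost when library totals replaced TMM (adjusted p = 0.058) and when any 1 of 7 libraries was left out. These were replicate 1 (adjusted p = 0.095) or 3 (0.13) of unstimulated shControl, replicate 2 (0.062) or 3 (0.060) of treated shControl, replicate 2 (0.077) or 3 (0.098) of unstimulated shPpargc1b and replicate 3 (0.051) of treated shPpargc1b, and the interaction itself stayed between -0.32 and -0.40. Irgm2 (-0.39 ± 0.09, adjusted p = 0.064) and Igtp (-0.37 ± 0.09, adjusted p = 0.070) missed the threshold. Both passed it in DESeq2 (adjusted p = 0.0046 and 0.0070).

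The GKS genes had interactions of -0.35 ± 0.11 (Gm12250, adjusted p = 0.21), -0.34 ± 0.13 (Tgtp2, adjusted p = 0.31), -0.51 ± 0.24 (Iigp1, adjusted p = 0.48) and -0.91 ± 0.42 (Tgtp1, adjusted p = 0.47). With 1 library left out, the value ran from -0.66 to -0.22 for Iigp1 and from -1.47 to -0.60 for Tgtp1. Iigp1 and Tgtp1, with 78 to 185 and 9 to 29 counts in unstimulated libraries, had the widest errors, and a knockdown effect of the same size with and without IFN-β was not told apart from a larger one with it.

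**Figure D4:**
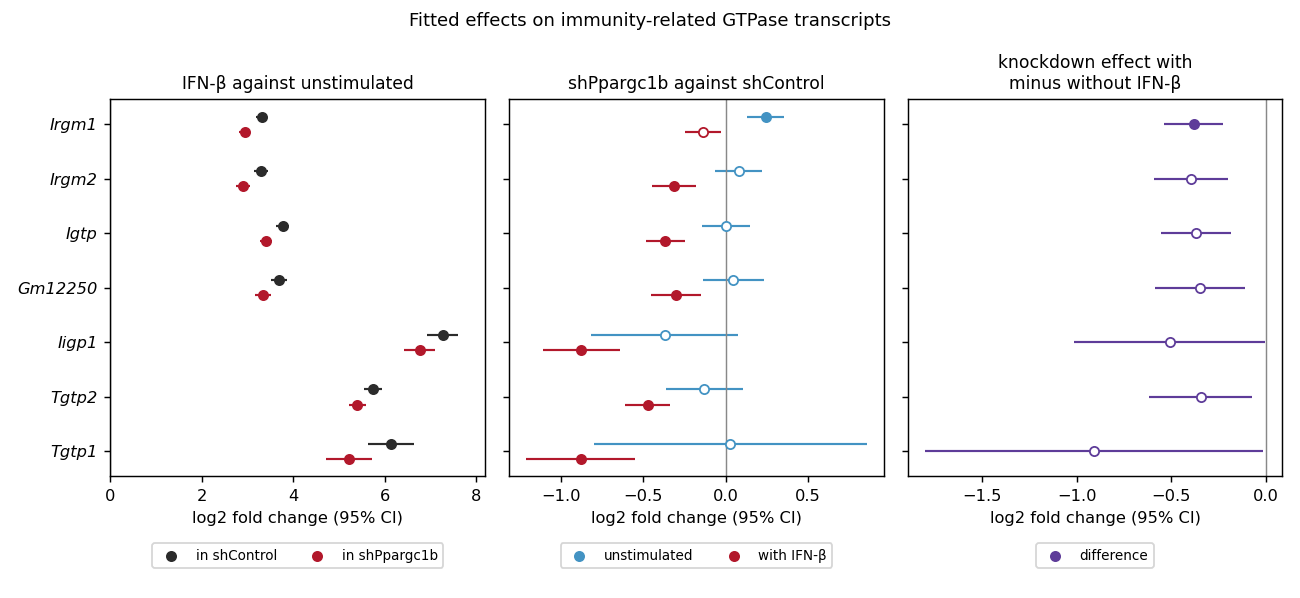
Fitted log2 fold changes of the 7 members with 95% confidence intervals (CI) for IFN-β against unstimulated (left), shPpargc1b against shControl (middle) and the difference between the knockdown effects (right). Filled points passed an adjusted p of 0.05; in the middle panel 6 members lie below 0 with IFN-β and are filled, while without IFN-β only Irgm1 is filled, above 0.

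Of the 9 other genes of the IRG family, 8 rose with IFN-β in shControl cells and 7 in shPpargc1b cells, beside 23.7% and 21.4% of all genes tested. The call for Irgc1 in shControl cells was lost with library totals (adjusted p = 0.17) and without replicate 2 of unstimulated shControl (0.055). In treated cells 7 of the 9 were lower in shPpargc1b than in shControl cells, beside 12.7% of all genes tested. Ifi47 (Irgd), a GKS-type gene that lies on chromosome 11, stood at 339.5, 374 and 363 CPM in treated shControl and at 295, 293 and 287 CPM in treated shPpargc1b cells (log2 fold change -0.30 ± 0.08, adjusted p = 0.010), with 0.00 ± 0.08 in unstimulated cells. Gm5431 (-0.26 ± 0.05) and Gm12185 (-0.40 ± 0.10), also on chromosome 11, were lower with IFN-β and did not pass the threshold without it.

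Other IRG genes were lower in shPpargc1b cells whether or not IFN-β was given. F830016B08Rik, which lies next to Iigp1 on chromosome 18, stood at 19.6, 19.99 and 17.8 CPM in unstimulated shControl and at 10.8, 9.90 and 11.0 CPM in unstimulated shPpargc1b cells (log2 fold change -0.86 ± 0.08, adjusted p = 2.2e-06). With IFN-β its value was -0.75 ± 0.07 (adjusted p = 3.0e-06). Gm4951, the next IRG gene along, gave -0.55 ± 0.10 without and -0.52 ± 0.09 with IFN-β. On chromosome 11, 9930111J21Rik1 (-0.41 ± 0.05 and -0.37 ± 0.05) and 9930111J21Rik2 (-0.27 ± 0.04 and -0.31 ± 0.04) were likewise lower in both. By edgeR 0 of the 9 passed the interaction test, with 3 lower at an unadjusted p under 0.05 and 0 called by DESeq2. Irgq, an IRG-like gene without a working GTP-binding site, and Irgc1, known from testis, passed neither knockdown test (Irgq -0.12 and Irgc1 0.11 with IFN-β), and Irgq did not pass for IFN-β in shControl cells either (-0.11, adjusted p = 0.13).

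**Figure D5:**
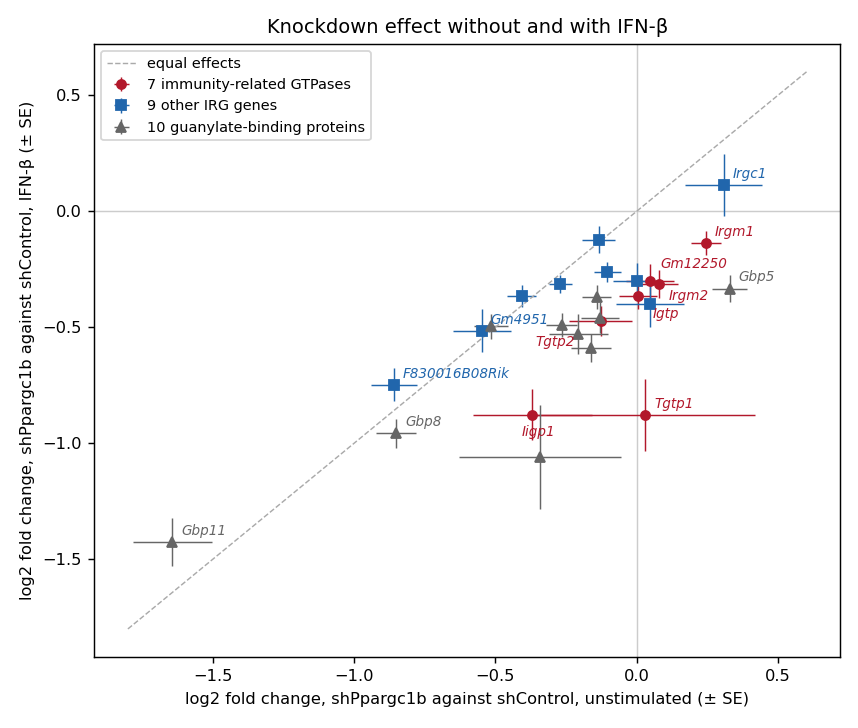
Log2 fold change of shPpargc1b against shControl in unstimulated cells (horizontal axis) and in IFN-β-treated cells (vertical axis), each ± SE, for the 7 members (red circles), 9 other IRG genes (blue squares) and 10 guanylate-binding proteins (grey triangles); the dashed line marks equal effects, and Gbp10, with at most 39 counts in a library, is not drawn. The members lie below the line, while Gm4951 and F830016B08Rik lie near it.

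The guanylate-binding proteins (GBPs), larger interferon-induced GTPases that act with IRGs at the vacuole, gave a like picture. All 11 rose with IFN-β in shControl and in shPpargc1b cells, and 10 of 11 were lower in treated shPpargc1b cells (median log2 fold change -0.50), from -0.33 for Gbp5 to -1.42 for Gbp11. Without IFN-β 4 of 11 were lower, among them Gbp8 (-0.85 ± 0.07) and Gbp11 (-1.64 ± 0.14), and Gbp5 was higher. Gbp5, which has been linked to inflammasome assembly, stood at 41.0, 39.8 and 36.2 CPM in unstimulated shControl and at 47.2, 45.6 and 54.0 CPM in unstimulated shPpargc1b cells (0.33 ± 0.06, adjusted p = 0.0012). With IFN-β it stood at 692, 751 and 706 CPM against 579, 569.7 and 557 CPM (-0.33 ± 0.06, adjusted p = 6.3e-04). Its interaction of -0.66 ± 0.09 (adjusted p = 0.0037) was the 1 of 11 called. Irgm1 had the same signs, though its own value with IFN-β missed the threshold.

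Of the ligands and receptors upstream, Ifng, the gene of interferon-γ, had 0 to 5 counts in every library, and Ifnb1 had 0 to 6 counts in unstimulated and 15 to 24 counts in treated libraries. Of 8 ligand and receptor genes 5 were tested, and 0 passed the edgeR threshold for the knockdown with IFN-β (0 at an unadjusted p under 0.05, and 0 by DESeq2). Ifnar1 (-0.08 with and 0.05 without IFN-β) and Ifnar2 (0.02 and 0.09), the chains of the receptor for IFN-β, passed in neither. Of the receptor for interferon-γ, Ifngr1 was lower (-0.26, adjusted p = 0.0019) and Ifngr2 higher (0.16, adjusted p = 0.0054) in unstimulated shPpargc1b cells. With IFN-β itself, Ifnar1, Ifnar2 and Ifngr2 rose and Ifngr1 fell in shControl cells (0.48, 0.49, 0.42 and -0.53).

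All 11 JAK-STAT and IRF genes, the signalling factors, rose with IFN-β in shControl and shPpargc1b cells. In unstimulated shPpargc1b cells those higher included Jak2 (log2 fold change 0.61), Irf7 (0.59), Irf8 (0.37) and Stat2 (0.21), and Irf2 was lower (-0.15). With IFN-β, 3 were lower, led by Irf1 at 179, 174 and 190.4 CPM against 222, 232 and 233 CPM (-0.34 ± 0.04, adjusted p = 2.6e-05), with Irf2 (-0.26) and Tyk2 (-0.16), whereas Irf8 (0.53) and Jak2 (0.24) were higher. Of all genes tested, 12.7% were called lower and 11.5% higher in this comparison. Stat2 (-0.10, adjusted p = 0.17) and Irf9 (-0.06, adjusted p = 0.44) did not pass. Jak2 (-0.37, adjusted p = 0.021) and Irf7 (-0.72, adjusted p = 0.024) passed the interaction test. The call for Jak2 was lost with library totals (adjusted p = 0.054) and without replicate 3 of unstimulated shControl (0.087) or replicate 1 (0.053) or 3 (0.063) of unstimulated shPpargc1b. The call for Irf7 was lost in 7 of 12 fits that left out 1 library, with adjusted p from 0.061 to 0.12 (replicate 1 or 3 of unstimulated shControl, 2 or 3 of treated shControl, 1 or 2 of unstimulated shPpargc1b or 3 of treated shPpargc1b).

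Among 8 inhibitors of the pathway, Socs1, an inhibitor of JAK kinases, did not pass either knockdown test (0.18 without and -0.15 with IFN-β). Usp18, which damps signalling from the receptor for IFN-β, was higher in unstimulated shPpargc1b cells (0.58, adjusted p = 5.0e-04) and stood at 0.01 with IFN-β. In all, 2 inhibitors were higher and 2 lower without IFN-β, and 1 was higher (Socs3, 0.34, lost without replicate 3 of treated shControl or replicate 2 of treated shPpargc1b, adjusted p = 0.090 and 0.093) and 3 lower (Ptpn6, -0.28; Ptpn1, -0.25; Pias1, -0.18) with it. Of all genes tested, 12.4% were called higher and 11.1% lower without IFN-β, and 11.5% higher and 12.7% lower with it. Small counts on lists of this size are a description only. The conjugation genes for LC3 and GABARAP, whose products steer IRGs to the vacuole, showed 1 call of 11 without IFN-β (Atg3, -0.12, adjusted p = 0.037). That call was lost under 8 of 19 alternatives, single libraries left out among them. With IFN-β 0 of 11 were called by edgeR (1 at an unadjusted p under 0.05, and 0 by DESeq2). Of 8 genes of ubiquitin and effectors at the vacuole, 4 were lower with IFN-β, led by Trim21, a ubiquitin ligase and antibody receptor (-0.33 ± 0.05, adjusted p = 1.6e-04), followed by Nbr1 (-0.16), Hook3 (-0.11) and Tax1bp1 (-0.11). Calls for the last 3 genes were each lost under at least 8 of 19 alternatives, single libraries left out among them.

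By the correlation of log2 CPM with the mean of the members, the genes most like them over the 12 libraries included Nt5c3, Trim21, Parp12 and Ifit1bl1 (Pearson r from 0.9994 to 0.9996, among 8767 candidates). The 12 libraries fall into separate unstimulated and treated clusters and all genes share these libraries, so r is a description. These 4 rose with IFN-β in shControl cells, from 2.60 for Trim21 to 8.09 for Ifit1bl1 on the log2 scale. Over the 6 treated libraries, which fall into shControl and shPpargc1b, the closest genes were Sp140, Mpp1, Lifr, 9930111J21Rik1 and Gm37474 (r from 0.9981 to 0.9995). Their log2 fold changes for the knockdown with IFN-β ran from -0.67 to -0.21, and with IFN-β in shControl cells their values ran from -0.82 for Lifr to 2.26 for Sp140. Each member's own r with the mean of the other 6 members over the treated libraries was lowest for Irgm1 (0.962) and highest for Gm12250 (0.996).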

How the data were processed

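Libraries were made from total RNA after removal of ribosomal RNA and sequenced as pairs of 100 bases. The authors trimmed reads with Trim Galore (0.6.0), aligned them to GRCm38 with STAR (2.7.8a in the submitters' processing notes) and deposited raw counts of uniquely mapped pairs per GENCODE M20 gene for 12 libraries; the strand setting is not given in the sources used here. From these counts, edgeR (4.0.16, R 4.3.3) kept genes by filterByExpr (minimum count 10, minimum total 15; 18228 genes, 99.96% of counts), scaled them by TMM and fitted 1 mean per group over all 12 libraries. The 4 simple contrasts and the interaction were tested by the quasi-likelihood F-test, Benjamini-Hochberg adjusted over all genes tested at a threshold of 0.05. The SE is the log2 fold change over the square root of F. The scripts were tested on simulated data.

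The members and lists were chosen with earlier results of these data known. Named genes were all members and the 9 other IRG genes, 11 fixed pathway genes and, for each other list and contrast, up to 4 called genes with the largest change. Genes outside this rule that make up a count of 5 or fewer were named after their values were seen. The 5 non-members most like the members were taken by Pearson r, among genes with a mean log2 CPM of at least 3. Some genes that these rules name are not reported here. As the labels number no replicate, accession order named the libraries of a group, and nothing was paired. Alternatives were DESeq2 (1.42.0), other scalings and filters, fewer groups, summed Tgtp1 and Tgtp2, a term for runs of 4 library codes (1 library of each group, not called a batch by any label), a fold limit and leaving out each library.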

Additional observations from a re-analysis of the deposited data

Results flagged for a closer look

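Irgm1 was picked out because its knockdown effect differed between treated and unstimulated cells by a test of the difference itself. The effect was 0.24 ± 0.05 (log2, SE) without IFN-β and -0.14 ± 0.05 with it, and the difference was -0.38 ± 0.07 (edgeR quasi-likelihood test, adjusted p = 0.025). Over 18 alternatives the difference ran from -0.43 to -0.32 and the adjusted p from 5.3e-06 to 0.13.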

How the results depend on the processing

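No paired analysis was possible because the labels give the libraries no replicate numbers. A term for the runs of library codes, which no label says pair libraries, called 7 of 7 members for the knockdown with IFN-β, where 6 were called without it, and 3 in the interaction. Of 658 values of the members under the alternatives, 620 kept their direction and side of the threshold, 8 dropped out of it, 18 came into it and 12 changed sign. The calls for IFN-β in shControl and shPpargc1b cells, for 6 members with the knockdown under IFN-β and for Irgm1 without IFN-β held under every alternative that kept the same genes and fold limit, leave-one-out fits included. When a change of 1 or more on the log2 scale was also required, 0 members passed in either knockdown comparison or in the interaction. When all genes with 1 count entered, the knockdown without IFN-β had 2 members called (Irgm1 and Iigp1, the latter at -0.35, adjusted p = 0.0098). The interaction called 5 members with all genes, 3 by DESeq2, 0 with library totals, and 0 to 3 when 1 library was left out. Over all genes it called 133, against 525 with all genes (43864 tested), 448 by DESeq2, 425 with the term for library codes and 84 with library totals, and 36 to 271 with 1 library left out. It moved by over 1.5 times without treated shControl replicate 2 (61) or 3 (76), unstimulated shControl replicate 1 (61) or 3 (36), treated shPpargc1b replicate 2 (271) or 3 (77), or unstimulated shPpargc1b replicate 2 (63) or 3 (59). The cause was not tested. With library totals the all-gene median for IFN-β went to -0.27 (shControl) and -0.22 (shPpargc1b), and the summed CPM of the members to 129.6 (unstimulated shControl), 1614 (treated shControl), 142 (unstimulated shPpargc1b) and 1266 (treated shPpargc1b). The values that changed sign missed the threshold in every case. For the knockdown without IFN-β, Igtp was at -0.010 with library totals and from -0.039 to 0.084 with 1 library left out, Tgtp1 at -0.10 when summed with Tgtp2 and from -0.26 to 0.62, Tgtp2 from -0.23 to 0.0057, and Gm12250 from -0.025 to 0.15. Ppargc1b with IFN-β in shPpargc1b cells ran from -0.15 to 0.066. With 9 to 29 counts of Tgtp1 and 78 to 185 of Iigp1 in unstimulated libraries, these members had the widest intervals for the knockdown without IFN-β and for the interaction.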
